A study of Danio rerio with 3 samples.

Results

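The genes of the proteasome, the protease complex that degrades ubiquitin-tagged proteins, were taken from the deposited zebrafish (Danio rerio) expression table by symbol. Of 25386 genes, 56 had a symbol that starts with psma, psmb, psmc, psmd, psme, psmf or psmg and goes on with a digit. Of these, 51 reached 1 FPKM (fragments mapped per kilobase of gene transcript, relative to the mapped total of the library) in at least 1 library. The symbol psmc3ip also matches, but that gene encodes a partner protein of meiotic recombination and no part of the proteasome. It stood at 23.68 FPKM in WGA embryos at 4.3 hours post fertilisation (hpf), 19.69 FPKM in WGA embryos at 5 hpf and 19.09 FPKM in control embryos, and it is left out of all counts below. The remaining 50 genes were 15 constitutive core subunit genes, 2 inducible-type core genes, 20 cap subunit genes, 5 activator genes, 7 assembly factor genes and the regulator gene psmf1. Poly(A) RNA had been extracted from whole dechorionated embryos of wild-type genotype in 3 groups of 1 library each. Embryos of the first group received a yolk injection of 0.65 ng of the nuclear pore-blocking lectin wheat germ agglutinin (WGA) in 1 nl of water when they were at 1-cell stage, and were collected at 4.3 hpf. Embryos of the second group had the same injection and were collected at 5 hpf, with the look of the dome stage. The control group had no treatment listed and was collected at 4.3 hpf, at dome stage. The labels name no mock injection, strain or number of embryos per library, so injection and WGA cannot be told apart.

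The proteasome has a barrel-shaped core and a regulatory cap at its ends. The core is built of outer rings of alpha subunits, which gate the channel, and inner rings of beta subunits, of which the products of psmb5, psmb6 and psmb7 carry the active sites. The cap holds a ring of ATPases (psmc genes) that unfold substrates and pull them into the core, and non-ATPase subunits (psmd genes) that bind the ubiquitin chain and cut it off. Other activators (psme genes) can take the place of the cap, and dedicated chaperones (psmg genes, psmd5, psmd9 and psmd10) help assembly without being part of the finished complex. Eggs are loaded with maternal proteasome mRNA and protein, and the proteasome takes part in clearing maternal proteins as the embryo passes to its own gene products.

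With 1 library per group, no difference below has a replicate check and no p-value was computed. A difference is the log2 ratio of (FPKM + 1) between 2 libraries, and folds are on that scale unless called plain FPKM ratios. Summed FPKM were 401114.47 and 411177.93 in the WGA libraries at 4.3 and 5 hpf and 430459.32 in the control library. For scale, 5 genes of the first zygotic wave were 3.27-fold to 9.48-fold lower in WGA embryos at 4.3 hpf than in control embryos. Likewise, 4 maternal genes were 4.89-fold to 9.45-fold higher. Both lists were chosen with earlier results of these data known, so their folds are no test of the treatment. Most proteasome genes differed far less than these chosen genes.

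The transcript level of subunits that share a complex spanned a wide range in every library. Among the 15 core genes the highest was psmb4, a non-catalytic beta subunit gene (NCBI Gene 550499), at 91.58 FPKM in WGA embryos at 4.3 hpf, 102.26 FPKM in WGA embryos at 5 hpf and 118.88 FPKM in control embryos. The lowest was psmb6 (30388), which encodes the caspase-like active site, at 1.68 and 2.44 FPKM in WGA embryos at 4.3 and 5 hpf and 4.54 FPKM in control embryos. As plain FPKM ratios, highest over lowest was 54.5-fold and 41.9-fold in the WGA libraries and 26.2-fold in the control library. Besides psmb6, the alpha subunit genes psma1 and psma6b lay below 10 FPKM in all 3 libraries. The other active-site genes were much higher than psmb6. The trypsin-like subunit gene psmb7 (64278) was at 25.63 and 29.39 FPKM in WGA embryos at 4.3 and 5 hpf and 53.9 FPKM in control embryos. The chymotrypsin-like subunit gene psmb5 (30387) was at 78.62 and 88.53 FPKM in the WGA libraries and 94.55 FPKM in the control library. Cap genes ran from 4.22 FPKM (psmd4b) to 69.71 FPKM (psmc4) in WGA embryos at 4.3 hpf, from 4.94 to 80.21 FPKM in WGA embryos at 5 hpf and from 6.53 to 86.99 FPKM in control embryos, with the same genes at both ends.

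**Figure D1:**
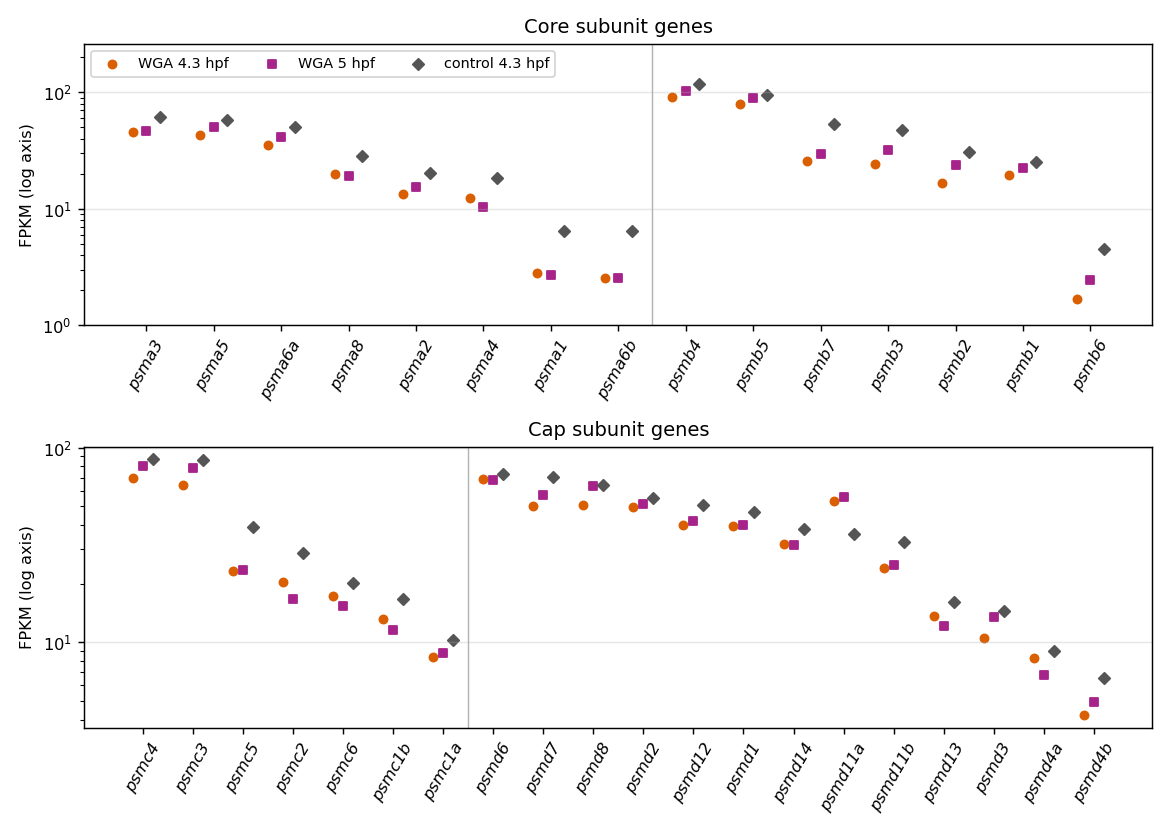
FPKM on a log axis of the 15 core genes (upper panel, alpha left of the line, beta right) and the 20 cap genes (lower panel, ATPases left of the line) in WGA embryos at 4.3 hpf, WGA embryos at 5 hpf and control embryos, 1 library each, ordered by the control level. As deposited, the control point is the highest of its 3 in all 15 core genes and 19 of 20 cap genes. The exception is psmd11a. Over all genes, 47.7% lay below control at 4.3 hpf and 52.2% at 5 hpf, and the share below at both was not computed. Under ribosomal protein scaling, 6 core genes and 1 cap gene lay below control at 4.3 hpf, where 15.6% of all genes did.

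By far the most abundant gene of the set was the activator gene psme3 (30649), which encodes PA28-gamma, a nuclear activator that works without ubiquitin. It was at 264.39 FPKM in WGA embryos at 4.3 hpf, 329.38 FPKM in WGA embryos at 5 hpf and 328.41 FPKM in control embryos, which placed it at ranks 127, 104 and 124 of all genes. The genes of the other PA28 subunits were low. psme1 stood at 9.91 and 12.76 FPKM in the WGA libraries and 8.36 FPKM in control embryos, and psme2 at 2.01 and 2.32 FPKM in the WGA libraries and 2.29 FPKM in control embryos. These activators are best known from the immune system of mammals.

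At the matched time of 4.3 hpf, core genes were lower in WGA embryos, the cap genes were lower by less, and the assembly and activator genes lay on both sides of control. Of the 50 genes, 43 (86%) lay below control, where 47.7% of 14263 genes measured in this pair did so, and 7 (14%) lay above it, where 52.2% did. The 50 genes had a median log2 ratio of -0.35, which is 1.28-fold lower (SD over genes 0.45), against 0.03 over all genes. In whole embryos, fewer cells with a transcript and less of it per cell cannot be told apart. The labels give no stage for WGA embryos at 4.3 hpf, so a difference in stage cannot be told apart from injection and WGA. At the size of 2-fold the set did not stand out: 3 genes (6%) were lower, where 8.97% of all genes were, and 1 gene (2%) was higher, where 7.21% of all genes were. At 1.5-fold, 9 of the 50 (18%) were lower and 3 (6%) were higher, with 15.3% and 18.1% over all genes. The split of lower and higher genes moved with the scaling. Under ribosomal protein scaling, 0 genes were lower and 9 (18%) higher at 1.5-fold, where 9.15% and 58.2% of all genes were, and at 2-fold 0 were lower and 6 (12%) higher, where 5.71% and 29.5% were. As TPM, 9 were lower and 5 higher at 1.5-fold, where 15.2% and 24.7% of all genes were. Under median-of-ratios scaling 4 were lower and 0 higher at 2-fold, where 9.51% and 6.01% were. At 1.5-fold 13 (26%) were lower and 3 (6%) higher under that scaling, where 17% and 15.8% of all genes were. The 43 genes below control and the 9 lower by 1.5-fold include psmb8a, which passed the limit of 1 FPKM through the control library alone and so had to be lower. Without it, 42 of 49 lay below control and 8 were lower by 1.5-fold.

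All 15 core genes lay below control at 4.3 hpf. Their log2 ratios ran from -1.07 to -0.26 around a median of -0.55, which is 1.46-fold lower (SD over genes 0.29). Under scaling to the ribosomal protein genes 6 of 15 (40%) lay below control, where 15.6% of all genes did. These were fewer than as deposited because that scaling moved the median of all genes in this comparison to 0.69. All 15 lay below the median of all genes under each of the 4 scalings tried, which is no separate check. A scaling multiplies a library by 1 factor, so it moves all genes together apart from the pseudocount. Beta subunit genes had a median of -0.84 (n = 7) and alpha subunit genes -0.53 (n = 8). The lowest beta genes were psmb6, psmb7, psmb3 and psmb2, at 2.07-fold, 2.06-fold, 1.89-fold and 1.79-fold lower, and all 4 stayed below control under ribosomal protein scaling. The structural beta subunit gene psmb3 was at 24.45 FPKM in WGA embryos at 4.3 hpf, 32.07 FPKM in WGA embryos at 5 hpf and 47.09 FPKM in control embryos. Another one, psmb2, was at 16.58 and 23.56 FPKM in the WGA libraries at 4.3 and 5 hpf and 30.52 FPKM in control embryos. The remaining beta genes psmb1, psmb4 and psmb5 had log2 ratios of -0.37, -0.37 and -0.26. In plain FPKM, without the pseudocount, psmb6 stood at 0.37 of control and psmb7 at 0.476. Active-site genes thus included both the lowest ratios of the beta group (psmb6 and psmb7) and the highest (psmb5).

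Among alpha genes, psma6b (436862) was at 2.54 FPKM in both WGA libraries and 6.43 FPKM in control embryos, 2.10-fold lower. psma1 (445033) was at 2.78 and 2.72 FPKM in the WGA libraries at 4.3 and 5 hpf and 6.45 FPKM in control embryos, 1.97-fold lower at 4.3 hpf and thus just outside the 2-fold limit. Both are genes of low level, where the pseudocount shrinks the ratio. Their plain FPKM ratios were 0.395 and 0.431. The other 6 alpha genes, psma2, psma3, psma4, psma5, psma6a and psma8, were 1.33-fold to 1.48-fold lower.

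Of the 20 cap genes 19 lay below control at 4.3 hpf. Under ribosomal protein scaling 1 of 20 (5%) did, where 15.6% of all genes did. The median over cap genes was -0.32, which is 1.25-fold lower (SD over genes 0.25). The difference of the core and cap medians was -0.22, and it ranged from -0.25 to -0.17 over the alternatives. Scaling between libraries does not affect this difference apart from the pseudocount, and the inducible genes are in neither class. Only the pseudocounts and FPKM limits could have turned its sign, and none did. Of 15 core genes, 6 lay below the lowest cap gene and 14 below the cap median. The ATPase genes had a median of -0.33 (n = 7). Their lowest member psmc5 (445285) was at 23.15 and 23.53 FPKM in the WGA libraries at 4.3 and 5 hpf and 39.26 FPKM in control embryos, 1.67-fold lower at 4.3 hpf. The other ATPase genes, psmc1a, psmc1b, psmc2, psmc3, psmc4 and psmc6, were 1.16-fold to 1.39-fold lower. Non-ATPase genes had a median of -0.24 (n = 13). Close to control were psmd6 of the lid (log2 ratio -0.08), the ubiquitin receptor gene psmd4a (-0.11) and the scaffold gene psmd2 (-0.15). The gene of the lid enzyme that cuts off ubiquitin, psmd14, was at 32.09 and 31.67 FPKM in the WGA libraries and 38.07 FPKM in control embryos (log2 ratio -0.24 at 4.3 hpf). The second scaffold gene psmd1 and the lid genes psmd3, psmd7, psmd8, psmd11b, psmd12 and psmd13 lay between -0.48 and -0.21, and psmd4b was lowest at -0.53.

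The cap gene above control was psmd11a (503934), 1 of a pair of genes for the lid subunit that acts as a clamp between cap and core. It was at 52.9 and 55.82 FPKM in the WGA libraries at 4.3 and 5 hpf and 35.96 FPKM in control embryos. Its log2 ratios were 0.54 and 0.62, and both stayed positive under each scaling. Both WGA libraries placed it above control, while its partner psmd11b, at 24.06 and 24.84 FPKM in the WGA libraries and 32.67 FPKM in control embryos, lay on the other side.

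**Figure D2:**
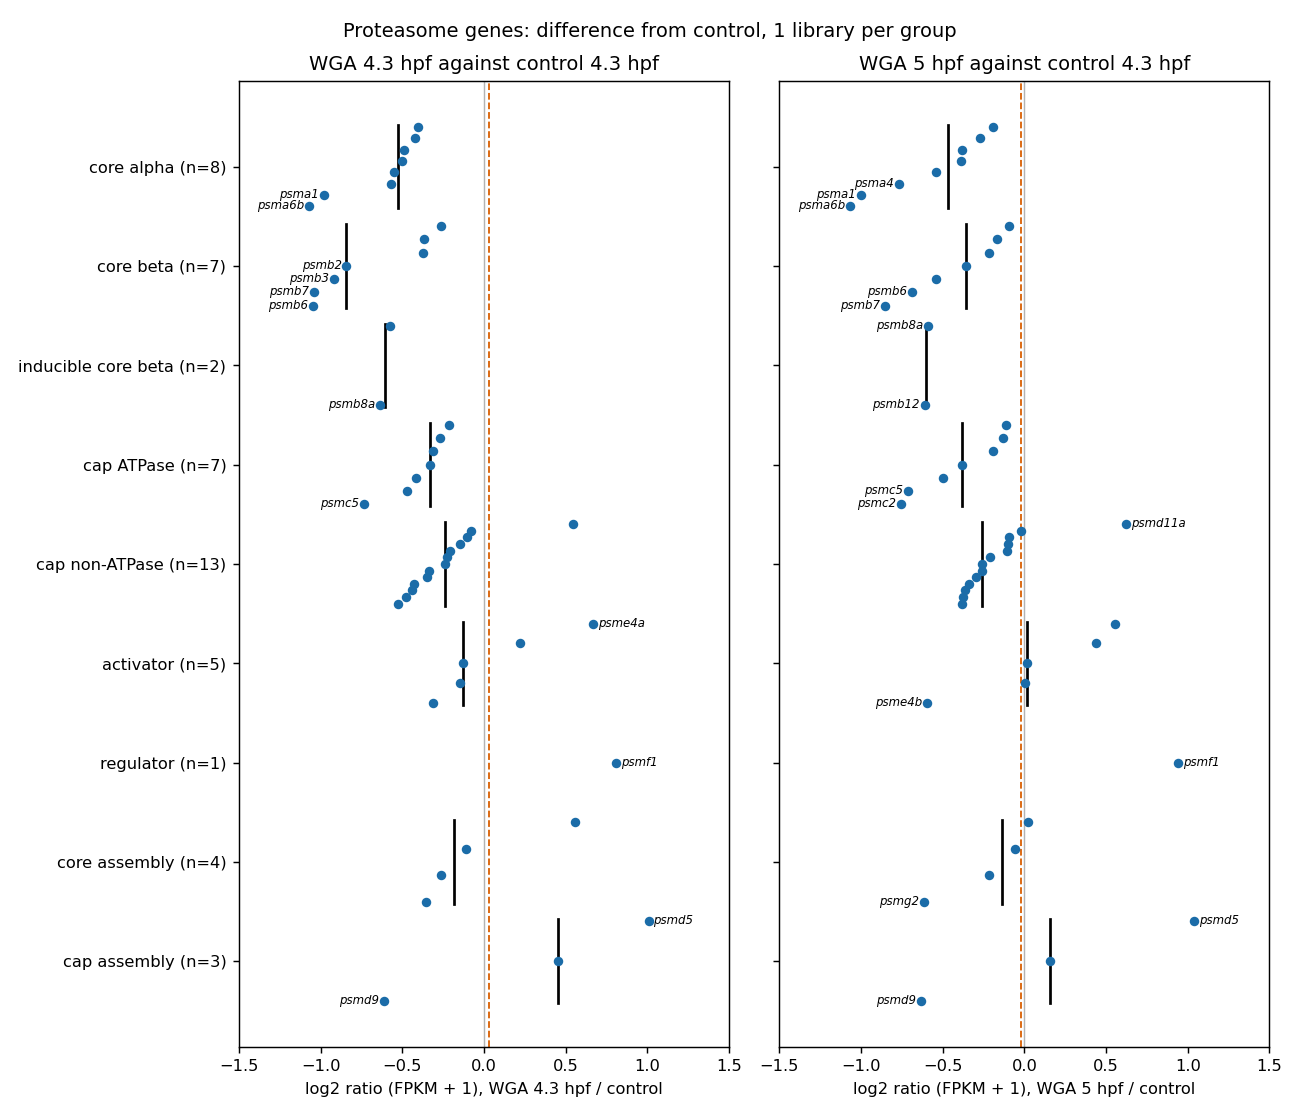
Log2 ratio of (FPKM + 1) of each proteasome gene by class, WGA at 4.3 hpf over control (left) and WGA at 5 hpf over control (right). Each point is 1 gene, the black bar is the class median, the dashed line is the median of all measured genes, and genes 1.5-fold or more from control are named. The 15 core genes lie left of 0 in both panels, and psmd5 and psmf1 are the genes farthest to the right.

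Genes that restrain or build the complex included the largest positive ratios. The regulator gene psmf1 (436820) encodes PI31, which inhibits the core in purified mammalian preparations. It was at 24.9 and 27.43 FPKM in WGA embryos at 4.3 and 5 hpf and 13.8 FPKM in control embryos, 1.75-fold and 1.92-fold higher. The cap chaperone gene psmd5 (550235) was at 7.1 and 7.28 FPKM in the WGA libraries and 3.03 FPKM in control embryos. It was 2.01-fold and 2.05-fold higher, just inside the 2-fold limit, and in mammalian cells its protein holds back the joining of cap and core. Both genes stayed above control under each of the 4 scalings. The other cap chaperones differed from psmd5. Gankyrin, encoded by psmd10, was at 15.32 and 12.3 FPKM in the WGA libraries and 10.91 FPKM in control embryos. In contrast, psmd9 was at 6.8 and 6.69 FPKM in the WGA libraries and 10.94 FPKM in control embryos, 1.53-fold lower at 4.3 hpf.

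On the FPKM + 1 scale as deposited, the core chaperone genes lay within 1.5-fold of control at 4.3 hpf. Their products act in pairs that set up the alpha ring. psmg1 was at 18.8 and 20.72 FPKM in the WGA libraries and 20.35 FPKM in control embryos. Its partner psmg2 was at 3.12 and 2.22 FPKM in the WGA libraries and 3.94 FPKM in control embryos, and was 1.53-fold lower at 5 hpf. psmg3 was at 11.74 FPKM in WGA embryos at 4.3 hpf, 7.31 FPKM in WGA embryos at 5 hpf and 7.66 FPKM in control embryos. Its partner psmg4 was at 17.25 and 19.06 FPKM in the WGA libraries and 22.35 FPKM in control embryos. For psmg3 the WGA library at 4.3 hpf was the high one, with the other libraries at a like level. It was 1.47-fold above control there, just inside the 1.5-fold limit, and its plain FPKM ratio was 1.53. It passed the limit as TPM (log2 ratio 0.69) and under ribosomal protein scaling (1.25), where psmg1 passed it as well (0.60).

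Over all 7 assembly genes the median log2 ratio was -0.11 at 4.3 hpf, with 4 below and 3 above control, and over the 5 activator genes it was -0.13, with 3 below and 2 above. Under ribosomal protein scaling all genes of both classes lay above control, where 12042 of 14263 genes measured in this pair did. Over the whole set, the genes below control at 4.3 hpf under each of the 4 scalings were psma1, psma6b, psmb2, psmb3, psmb6, psmb7, psmb12 and psmc5, besides psmb8a, which had to be lower. The genes above control under each were psmd5, psmf1, psmd11a, psme4a, psmg3, psmd10 and psme1. Under ribosomal protein scaling, 9 of the 50 genes (18%) lay below control, where 15.6% of all genes did. Under median-of-ratios scaling, 7 of the 50 lay above it, where 6722 of 14263 genes did. The share of all genes that kept to the same side under each of the 4 scalings was not computed. The activator gene farthest from control at 4.3 hpf was psme4a (793897), 1 of 2 genes for PA200, an activator known for degrading acetylated histones in mammals. It was at 2.8 and 2.24 FPKM in the WGA libraries and 1.39 FPKM in control embryos, 1.59-fold and 1.36-fold higher.

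When the 5 hpf WGA library was set against the control of like stage, the pooled medians of core and cap genes were nearer to 0 than at 4.3 hpf, and most of these genes still lay below control. Both comparisons with control use the same control library. The pair of like stage also differs in age, 5 against 4.3 hpf, so age cannot be told apart from injection and WGA. Of the 50 genes, 41 (82%) lay below control, where 52.2% of 14158 genes did, and 9 (18%) lay above, where 47.6% did. Their median was -0.27 on the log2 scale (SD over genes 0.43), against -0.02 over all genes. At 2-fold, 2 genes (4%) were lower, psma1 (0.499 times control, just inside the limit) and psma6b (0.476 times), with 7.92% over all genes, and psmd5 (2%) was higher, with 5.3% over all genes. At 1.5-fold, 12 of 50 (24%) were lower, where 15% of all genes were, and 3 (6%) were higher, where 13.3% were. Under ribosomal protein scaling 2 were lower and 5 higher at 1.5-fold, where 10.5% and 26.9% of all genes were, and at 2-fold 0 were lower and 2 higher, where 5.83% and 11.2% were. As TPM, 2 were lower and 2 higher at 2-fold, where 9.97% and 7.44% of all genes were. At 1.5-fold 11 were lower and 5 higher as TPM, where 15.8% and 16.7% were. psmb8a is among the 41 genes below control and the 12 lower by 1.5-fold, and without it 40 of 49 lay below control and 11 were lower by 1.5-fold.

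Core genes had a median log2 ratio of -0.39 at the matched stage (SD over genes 0.31) and cap genes -0.26 (SD 0.28), a difference of -0.13 that ranged from -0.14 to -0.13 over the alternatives. Here too, scaling between libraries could not turn the difference apart from the pseudocount. All 15 core genes lay below control. Under ribosomal protein scaling, where all genes had a median of 0.31, 9 of the 15 (60%) did. Of the 20 cap genes 19 lay below control, and 8 (40%) did under ribosomal protein scaling. Over all genes, 24.8% lay below control under that scaling. Alpha genes (median -0.47) were now lower than beta genes (-0.36). The lowest alpha gene besides psma1 and psma6b was psma4, at 12.3 and 10.4 FPKM in the WGA libraries at 4.3 and 5 hpf and 18.45 FPKM in control embryos, 1.71-fold lower at 5 hpf. The gene with the next ratio, psma8, which the NCBI gene table also lists as psma7, was 1.46-fold lower. The lowest beta genes were psmb7 and psmb6, at 1.81-fold and 1.61-fold lower, while psmb5 stood at a log2 ratio of -0.09. Within the cap, the ATPase median was -0.38 and the non-ATPase median -0.26, against -0.33 and -0.24 at 4.3 hpf, so neither was nearer to 0 at 5 hpf. The lowest cap genes were both ATPase genes. psmc2 was at 20.43 and 16.65 FPKM in the WGA libraries at 4.3 and 5 hpf and 28.77 FPKM in control embryos, 1.69-fold lower at 5 hpf, and psmc5 was 1.64-fold lower. Several cap genes were near control, among them psmd8 (log2 ratio -0.02), psmd2 (-0.10), psmc4 (-0.12) and psmc3 (-0.13).

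**Figure D3:**
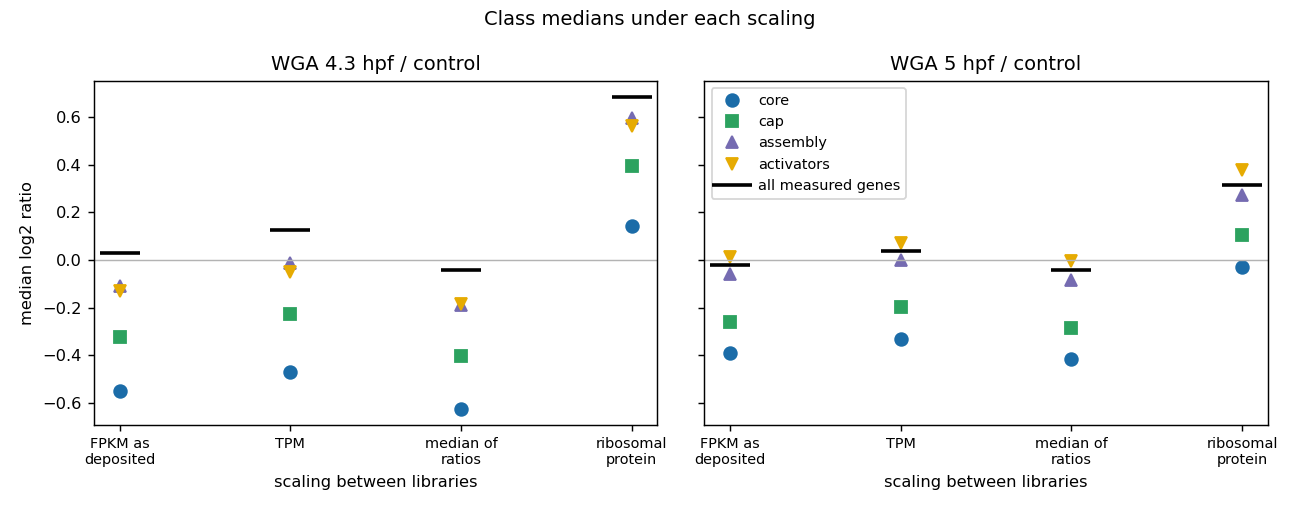
Median log2 ratio to control of core, cap, assembly and activator genes, and of all measured genes (black bar), under 4 scalings between libraries, for WGA at 4.3 hpf (left) and 5 hpf (right). The sign of a class median depends on the scaling, except for core genes at 5 hpf. Their median is negative under each of the 4, at -0.0293 under ribosomal protein scaling. The core median lies below the cap median, and both lie below the median of all genes, under each of the 4. A factor per library cannot change this order apart from the pseudocount.

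Set beside other complexes, the proteasome genes at 4.3 hpf lay between the ribosome and a relative of the cap. The 80 cytosolic ribosomal protein genes had a median log2 ratio of -0.72 at 4.3 hpf and -0.37 at 5 hpf. The COP9 signalosome has subunits related to those of the lid. Its 7 genes found by a cops symbol, which need not be all of its genes, had medians of -0.10 and -0.14. At 5 hpf the core median of -0.39 was close to that of the ribosomal protein genes. These are descriptions of single libraries, with no test of the difference.

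Between the WGA libraries, 5 hpf against 4.3 hpf, all 7 beta subunit genes lay above the earlier library, and genes of the other classes lay on both sides of it. Of the 49 genes at 1 FPKM or more in either library, 31 (63.3%) lay above the earlier library, where 41.2% of 13478 genes did, and 17 (34.7%) lay below it, where 58.5% did. Their median log2 ratio was 0.08, against -0.05 over all genes. Under ribosomal protein scaling 4 lay above and 45 (91.8%) below, where 91.7% of all genes lay below. No gene reached 2-fold in either direction, where 0.772% of all genes were higher and 0.356% were lower. At 1.5-fold psmg3 (2.04%) was lower, at a log2 ratio of -0.62, where 4% of all genes were lower, and no gene was higher, where 2.26% were. The beta genes had a median of 0.20, led by psmb2 (0.48), psmb3 (0.38) and psmb6 (0.36). Under ribosomal protein scaling these 3 stayed above it and the other 4 did not, the median of all genes being moved to -0.38. The 8 alpha genes had a median of 0.02, with 4 above, 3 below and psma6b at the same FPKM in both. As TPM 3 of the alpha genes lay above and 5 below, and under ribosomal protein scaling all 8 lay below.

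Cap genes between the WGA libraries had a median of 0.05, with 13 above and 7 below. As TPM 11 lay above and 9 below, and under ribosomal protein scaling all 20 lay below, where 91.7% of all genes did. The core median exceeded the cap median by 0.14, and by 0.11 to 0.15 over the alternatives, of which the scalings could not turn it apart from the pseudocount. The highest cap ratios belonged to psmd3 (0.33) and psmd8 (0.33), and the lowest to psmc2 (-0.28) and psmd4a (-0.26). Within a library, the summed FPKM of cap genes was 1.53 times that of core genes in WGA embryos at 4.3 hpf, 1.45 times in WGA embryos at 5 hpf and 1.29 times in control embryos. The median FPKM of cap genes was 1.414 times that of core genes in WGA embryos at 4.3 hpf, 1.199 times in WGA embryos at 5 hpf and 1.213 times in control embryos, so that on this measure WGA embryos at 5 hpf did not lie above control. These ratios do not depend on scaling between libraries. Apart from psmg3, the largest negative ratios were those of the activator gene psme4b (-0.45) and the chaperone gene psmg2 (-0.36).

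**Figure D4:**
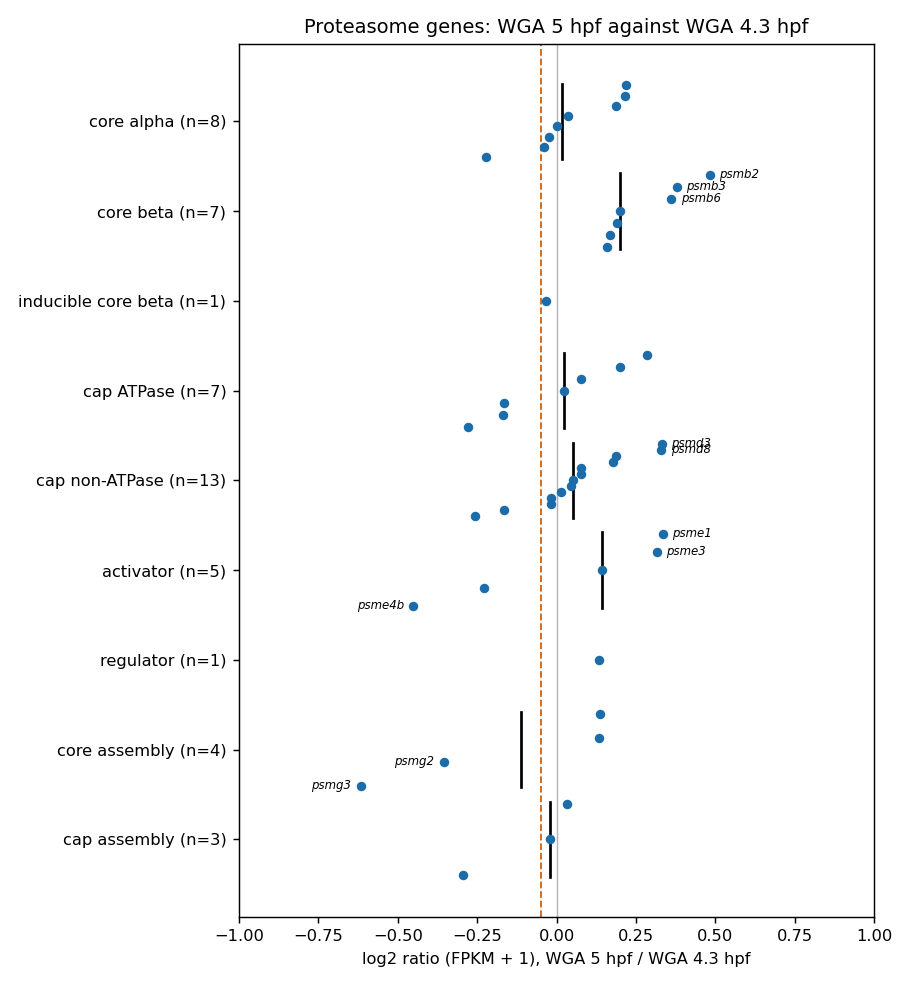
Log2 ratio of (FPKM + 1) of each proteasome gene by class, WGA at 5 hpf over WGA at 4.3 hpf, 1 library each. Points are genes, black bars class medians, the dashed line the median of all measured genes, and genes at 0.3 or more from 0 are named. All 7 beta genes lie right of 0, and psmg3 lies farthest left.

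Zebrafish carry a pair of genes for several subunits, and the balance within some pairs differed between WGA and control embryos. Shares within a pair do not depend on scaling between libraries, although reads of similar copies may have been divided between them by estimate. psmd11a made up 68.7% of the summed FPKM of psmd11a and psmd11b in WGA embryos at 4.3 hpf, 69.2% in WGA embryos at 5 hpf and 52.4% in control embryos. psme4a made up 13.3% and 14.6% of the PA200 pair in the WGA libraries at 4.3 and 5 hpf and 6.39% in the control library. Its partner psme4b was at 18.33 and 13.14 FPKM in the WGA libraries and 20.36 FPKM in control embryos. psma6b made up 6.7% and 5.79% of psma6a and psma6b together in the WGA libraries and 11.4% in control embryos. In all 3 pairs the WGA libraries were closer to each other than to control. For psmc1a and psmc1b the share of psmc1a was 38.9% and 43.4% in the WGA libraries and 38% in control embryos. For psmd4a and psmd4b the share of psmd4a was 66.2% in WGA embryos at 4.3 hpf, 57.7% in WGA embryos at 5 hpf and 57.9% in control embryos. In these 2 pairs 1 WGA library lay close to control and the other apart.

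**Figure D5:**
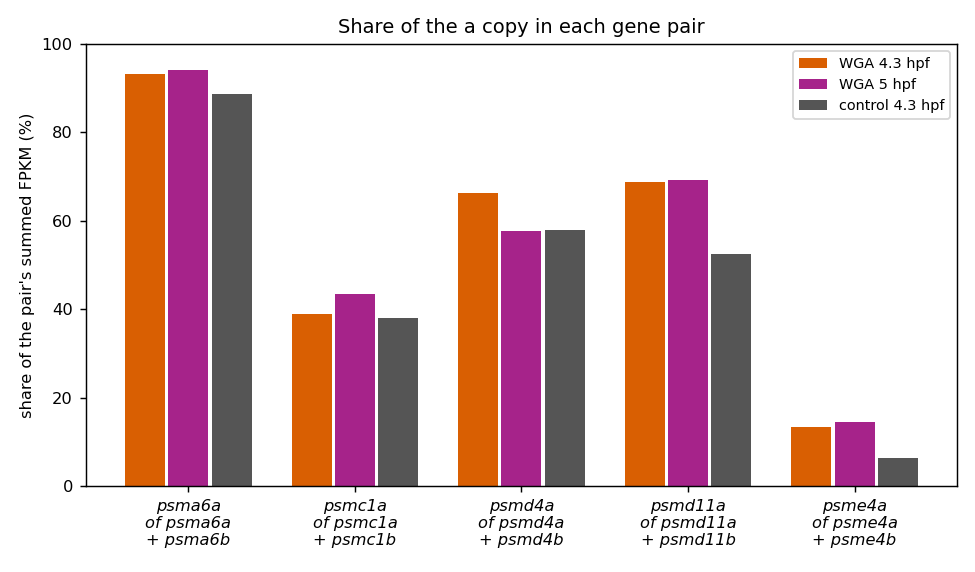
Share (%) of the a copy in the summed FPKM of each pair of gene copies, in WGA embryos at 4.3 hpf, WGA embryos at 5 hpf and control embryos, 1 library each. Both WGA bars stand above the control bar for psma6a, psmd11a, psme4a and, by less at 4.3 hpf, psmc1a, while for psmd4a the 5 hpf bar (57.7%) is not above control (57.9%).

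Inducible-type beta genes encode active-site subunits that replace the constitutive ones, in mammals chiefly in immune cells and under interferon. They were at or near the lower limit here. psmb12, by its synonym in the NCBI gene table a relative of psmb6, was at 2 and 1.93 FPKM in the WGA libraries at 4.3 and 5 hpf and 3.47 FPKM in control embryos. psmb8a, the counterpart of psmb5, was at 0.51 and 0.56 FPKM in the WGA libraries and 1.35 FPKM in control embryos, so that it passed the limit of 1 FPKM through the control library alone and had to be lower in the others. Just outside the limit were psmb9a, with 0.69, 0.68 and 0.91 FPKM in WGA embryos at 4.3 hpf, WGA embryos at 5 hpf and control embryos, and the alpha-like gene psma6l, with 0.81, 0.77 and 0.89 FPKM in the same order. psmb11b was at 0.17 and 0.11 FPKM in the WGA libraries and 0.76 FPKM in control embryos. The gene listed as psmb10 (64280), which the NCBI gene table now names psmb13a, was at 0 in both WGA libraries and 0.05 FPKM in control embryos, and psmb11a was listed at 0 in all 3 libraries. These 5 genes are the ones that missed the limit.

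Outside the symbol rule, 33 symbols of proteasome partners and of the ubiquitin system were looked up, of which 27 genes were found and 25 reached 1 FPKM. At 4.3 hpf 18 of the 25 lay below control, where 47.7% of all genes did, and 7 above, where 52.2% did, with a median log2 ratio of -0.12. The 18 include the gene nfe2l1a, which passed the limit of 1 FPKM through the control library alone and so had to be lower. At 2-fold 0 were lower and 2 were higher, where 8.97% and 7.21% of all genes were, and at 1.5-fold 4 were lower and 6 higher, where 15.3% and 18.1% of all genes were. The 4 lower by 1.5-fold were shfm1, ubb, ubqln4 and rps27a, and the 6 higher were uba1, kiaa0368, nploc4, ube3c, ngly1 and si:dkey-82j4.2. The cap subunit gene adrm1, a ubiquitin receptor, was at 9.02 and 8.79 FPKM in the WGA libraries at 4.3 and 5 hpf and 13.81 FPKM in control embryos. shfm1, now called sem1, the smallest lid subunit, was at 17.05 and 21.8 FPKM in the WGA libraries and 29.57 FPKM in control embryos. The core maturation factor gene pomp was at 40.79 and 49.58 FPKM in the WGA libraries and 57.27 FPKM in control embryos. Their log2 ratios at 4.3 hpf were -0.56, -0.76 and -0.48, and of the 3 only shfm1 stayed below control under ribosomal protein scaling.

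The highest ratio of the list was that of uba1. This gene, which encodes the main ubiquitin-activating enzyme, was at 125.78 and 134.7 FPKM in the WGA libraries at 4.3 and 5 hpf and 54.5 FPKM in control embryos, 2.28-fold and 2.44-fold higher. kiaa0368, now called ecpas, encodes a scaffold that binds cap and core, and was 2.26-fold and 2.14-fold higher. The genes nploc4, a cofactor of the segregase VCP, ube3c, a ligase that extends chains at the proteasome, and ngly1, an enzyme that removes glycans and in mammals activates NFE2L1, were 1.96-fold, 1.80-fold and 1.79-fold higher at 4.3 hpf. The gene listed as si:dkey-82j4.2, which the NCBI gene table now names uba6, was at 10.79 and 10.2 FPKM in the WGA libraries and 6.84 FPKM in control embryos. Lower were ubqln4, a gene for a shuttle protein that binds ubiquitin and the proteasome, and rps27a. The gene rps27a is in this list of the ubiquitin system and is also 1 of the 80 cytosolic ribosomal protein genes above. ubqln4 was at 43.46 and 48.18 FPKM in the WGA libraries and 75.98 FPKM in control embryos, 1.73-fold and 1.57-fold lower, and lay below control under each of the 4 scalings. rps27a was at 54.58 and 72.66 FPKM in the WGA libraries and 98.19 FPKM in control embryos, 1.78-fold and 1.35-fold lower. The segregase gene vcp itself was at 87.12 and 91.08 FPKM in the WGA libraries and 99.91 FPKM in control embryos. The polyubiquitin gene ubb was 1.59-fold and 1.45-fold lower, and under ribosomal protein scaling it stayed below control at 5 hpf alone. The genes of NFE2L1, the transcription factor that raises proteasome genes in mammals when the proteasome is inhibited, were near the lower limit. nfe2l1a was at 0.66 and 0.55 FPKM in the WGA libraries and 1.01 FPKM in control embryos, and nfe2l1b at 1.04 and 0.96 FPKM in the WGA libraries and 1.13 FPKM in control embryos. At 5 hpf 16 of the 25 genes lay below control, where 52.2% of all genes did, and 9 above, where 47.6% did, with a median of -0.12. The 16 include nfe2l1a and nfe2l1b, which in this pair reached 1 FPKM in the control library alone and so had to be lower.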

How the data were processed

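The authors deposited 1 table of FPKM values, rounded to 2 decimals, for 3 libraries of whole zebrafish embryos. Per the submitters' processing notes, the genome build was GRCz11 and the tools included RSEM 1.2.8, Bowtie2 2.2.5 and Trimmomatic 0.36. Their settings and any scaling between libraries are not stated there. Columns were assigned to libraries by column name. FPKM carry no read numbers, so depth is unknown and counting intervals cannot be given. Among genes at 0.2 to 1 FPKM in both libraries of a pair, rounding left 1.76% to 4.66% at equal values, and no step of whole reads was recovered. Ratios were computed with Python 3.11.15, pandas 2.3.3 and numpy 2.4.6 as log2 of (FPKM + 1), over genes at 1 FPKM or more in either library. The ratio step was tested on simulated data, with planted changes larger than 2-fold and in genes of high level only. That test does not cover low genes or calls at 1.5-fold. Calls used 2-fold and 1.5-fold, with no test, since there is 1 library per group. The alternatives were pseudocounts of 0.1 and 5, other FPKM limits, TPM, median-of-ratios scaling over 12445 genes, scaling to 79 ribosomal protein genes, and leaving out the inducible core genes. Members, classes, lists and thresholds were chosen with earlier results of these data known. Every member is named, with values in full for those farthest from control in each class, active-site genes, gene pairs and genes at the limits. Gene names of partners were matched by symbol, or by NCBI Gene number through the NCBI table of assembly GRCz12tu, used for names alone. Values of near-identical copies are uncertain gene by gene. From the counts of the partner list 1 gene was left out, which is not reported here, and not every other partner is named.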

Additional observations from a re-analysis of the deposited data

How the results depend on the processing

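Of 96 recomputed values, 79 stayed within 1.5 times the reported value without turning to the other sign or side, 10 moved by more and 7 turned. The 79 include differences of the core and cap medians that had to stay, so this number is no measure of stability. The scalings cannot change these differences apart from the pseudocount, and leaving out the inducible genes cannot change them at all. Counts equal on both sides, as at 2-fold at 5 hpf as TPM (2 lower, 2 higher), were not taken as turned. All 7 turned under ribosomal protein scaling, where the median log2 ratio of the proteasome genes became 0.35 (WGA at 4.3 hpf against control), 0.10 (WGA at 5 hpf against control) and -0.28 (WGA at 5 hpf against WGA at 4.3 hpf). The genes past 1.5-fold became 9 (0 lower, 9 higher; reported 9 lower, 3 higher) at 4.3 hpf against control and 7 (2 lower, 5 higher; reported 12 lower, 3 higher) at 5 hpf. The genes past 2-fold became 6 (0 lower, 6 higher; reported 3 lower, 1 higher) and 2 (0 lower, 2 higher; reported 2 lower, 1 higher). That scaling also moved the number past 1.5-fold between the WGA libraries to 6, all lower, where 21.3% of all genes were lower. A pseudocount of 5 left 0 genes past 2-fold in both comparisons with control and 7 past 1.5-fold in each (5 lower, 2 higher), and 0 past 1.5-fold between the WGA libraries, as did median-of-ratios scaling there. The median between the WGA libraries was 0.044 with no filter on FPKM, 0.042 as TPM and 0.13 under median-of-ratios scaling. The larger pseudocount shrinks low genes by construction. Ribosomal protein scaling shifts all genes of a library together, apart from the pseudocount, so it turned these values by construction. Its log2 factors over control were 0.74 for WGA at 4.3 hpf and 0.37 for WGA at 5 hpf. Why the ribosomal protein genes differed between libraries was not tested, nor was any other cause. No paired analysis was possible because each group has 1 library, and for the same reason no replicate could be left out.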

Other observations

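Genes that the current NCBI gene table places in the proteasome family but that the deposited table lists under an older name were outside the symbol rule. The gene listed as si:rp71-45k5.4 (403015), now psma2b, an alpha subunit gene, was at 13.34 FPKM in WGA embryos at 4.3 hpf, 14.84 FPKM in WGA embryos at 5 hpf and 25.83 FPKM in control embryos. Its log2 ratios to control were -0.90 and -0.76, lower than those of its copy psma2 (-0.57 and -0.38). psma2 made up 50.1% and 50.9% of the summed FPKM of this pair in the WGA libraries at 4.3 and 5 hpf and 44.1% in control embryos. The gene listed as zgc:92791 (436816), now psmb10 and a counterpart of psmb7, was at 1.99 and 3.14 FPKM in the WGA libraries and 3.01 FPKM in control embryos. With it and the gene listed as psmb10 counted, psmb7 still made up 92.8%, 90.3% and 94.6% of the summed FPKM of trypsin-like subunit genes in WGA embryos at 4.3 hpf, WGA embryos at 5 hpf and control embryos. For the caspase-like position the balance was different: psmb6 made up 38.4% in WGA embryos at 4.3 hpf, 48.3% in WGA embryos at 5 hpf and 50.9% in control embryos, with the rest from psmb12 and psmb9a at low levels. For the chymotrypsin-like position psmb5 made up 99.1% and 99.2% in the WGA libraries and 97.8% in control embryos.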
